A study of Mus musculus with 38 samples.

Results

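The 10 genes described here encode hormones of enteroendocrine cells, proteins of their secretory granules and 1 of their transcription factors. They are Chga, Chgb, Gip, Cck, Sct, Gcg, Ghrl, Sst, Tac1 and Neurod1, 10 of the 54352 identifiers in the deposited count table, and they were found by symbol in the mm10 annotation. They were followed over 37 libraries of mouse intestinal organoids in 8 groups. All organoids had a C57BL6 background. They were grown from crypts in 65% matrigel over 2 passages, for 8 days in all, either with 1 uM GW501516 (GW, a synthetic PPARδ agonist) in 0.1% DMSO or with 0.1% DMSO alone (vehicle). There were 5 libraries of GW-treated and 5 of vehicle-treated wild-type organoids (WT), 3 and 5 of the genotype labelled Ppard-fl/fl (D), 5 and 5 of the genotype labelled Ppara-null (A), and 5 and 4 of organoids with both alleles (DA). PPARδ, encoded by Ppard, and PPARα, encoded by Ppara, are lipid-activated nuclear receptors. The labels give the Ppard allele as floxed and name no Cre or other recombinase, so how and in which cells it was recombined is not given in the sources used here. Another sample was in no group because its title named GW in D and its genotype label both genes. Its column may be among the 3 used for GW in D, since the column names do not tell them apart. Nothing says that the libraries of a group came from separate animals, so a p-value here measures only the spread between these libraries, which may be technical.

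Enteroendocrine cells are scattered hormone-secreting cells of the gut epithelium. They arise in the crypts from the same stem cells as absorptive, goblet and Paneth cells, by way of a progenitor that expresses Neurog3 and then Neurod1. Each cell stores peptide hormones in dense-core granules built with chromogranins and releases them in response to nutrients. Neurod1 is a basic helix-loop-helix factor, a class of proteins that bind the E-box CANNTG, and it is best known in the gut for the differentiation of cells that make secretin and cholecystokinin.

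The promoter windows of 4 hormone genes are printed to show their E-boxes, the kind of site that Neurod1 can bind. Each is the 250 bases before the RefSeq start of the gene on GRCm38.p6, written 5′ to 3′ on the gene's own strand with every CANNTG in capitals. They lie at chr11:96024295-96024544 (plus strand), chr9:121495695-121495944 (minus), chr7:141279134-141279383 (minus) and chr2:62483654-62483903 (minus).
Gip: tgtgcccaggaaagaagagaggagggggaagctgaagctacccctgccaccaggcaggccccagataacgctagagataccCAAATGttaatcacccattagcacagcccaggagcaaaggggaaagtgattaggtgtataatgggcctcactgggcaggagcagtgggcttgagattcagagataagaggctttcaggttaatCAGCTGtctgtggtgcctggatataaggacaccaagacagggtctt
Cck: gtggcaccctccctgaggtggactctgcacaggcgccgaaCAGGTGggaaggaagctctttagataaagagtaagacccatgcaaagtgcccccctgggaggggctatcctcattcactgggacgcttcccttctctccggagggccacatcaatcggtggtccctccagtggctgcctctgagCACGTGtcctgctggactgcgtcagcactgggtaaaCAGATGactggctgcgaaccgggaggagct
Sct: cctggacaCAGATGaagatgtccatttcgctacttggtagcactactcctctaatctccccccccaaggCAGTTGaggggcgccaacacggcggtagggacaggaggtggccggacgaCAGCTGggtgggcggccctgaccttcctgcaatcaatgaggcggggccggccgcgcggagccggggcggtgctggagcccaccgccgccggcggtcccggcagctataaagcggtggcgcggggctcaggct
Gcg: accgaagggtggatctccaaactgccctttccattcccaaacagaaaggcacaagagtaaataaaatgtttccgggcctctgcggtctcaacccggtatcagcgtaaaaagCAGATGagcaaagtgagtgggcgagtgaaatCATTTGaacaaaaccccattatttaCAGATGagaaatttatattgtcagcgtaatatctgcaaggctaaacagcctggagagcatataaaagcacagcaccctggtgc
All 10 genes had a window in the RefSeq table, and Ghrl had 4 windows for its several starts. CANNTG, which reads the same on both strands, was in a window of 10 of the 10 genes, against 69.3% of the 27025 genes with a window, so most genes hold it. The more specific E-box CAGATG, read also as CATCTG on the other strand and itself a form of CANNTG, was in the windows of Cck, Sct, Gcg and Tac1. That is 4 of 10, against 16.3% of all genes.

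The cAMP response element TGACGTCA, its own reverse complement, was in 2 of 10 windows, against 1.77% of all genes. The genes were Chgb and Sst, and the somatostatin gene is the textbook case of this element. Both sites lie within the mm10 gene spans given below, so the RefSeq starts used here lie downstream of the starts of those spans. The sites are shown with the bases around them, the element in capitals, from chr2:132781560-132781587 (plus strand) and chr16:23890875-23890902 (minus strand).
Chgb: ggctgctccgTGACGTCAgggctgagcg
Sst: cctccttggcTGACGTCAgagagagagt
The direct repeat of AGGTCA with 1 free base between its copies, the kind of element that PPAR heterodimers bind, was searched on both strands. It was in 0 of 10 windows and in 0.0407% of all genes. The TATA box TATAAA, searched on both strands, was in the windows of Sct and Gcg, 2 of 10, against 14.3% of all genes. A match says only that the letters are in the window.

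All 10 genes were detected, at low counts. The assay reads 1 tag near the 3′ end of each transcript, so the values are counts of tags per 1000000 counts of the library (CPM) and are not divided by length. Levels of different genes are therefore not ranked here, and counts are given because they set the precision. The libraries held 353347 to 577557 counts, with a median of 483848, so that 1 count is worth about 2 CPM. Chgb, on chromosome 2 (132781278 to 132795079, mm10), encodes the granule protein chromogranin B and gave 620 counts over all libraries, 8 to 29 in each. Gip, on chromosome 11 (96024545 to 96030831), encodes the incretin made by K cells and gave 552 counts, 6 to 25 in each library. Gcg, on chromosome 2 (62474530 to 62483650), encodes the precursor of GLP-1 in L cells and gave 533 counts, 5 to 28 in each. Those 3 genes had counts in every library, as did the next 4. Sct, on chromosome 7 (141278330 to 141279133), encodes secretin and gave 490 counts, 6 to 27 in each library. Ghrl, on chromosome 6 (113716119 to 113719880), encodes ghrelin and gave 369 counts, 3 to 17 in each. Cck, on chromosome 9 (121489824 to 121495694), encodes cholecystokinin and gave 227 counts, 1 to 14 in each, and Tac1, on chromosome 6 (7554879 to 7565834), encodes the precursor of substance P, which serotonin-making enterochromaffin cells also produce, and gave 177, 1 to 13 in each.

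The other 3 genes were close to the limit of detection. Chga, on chromosome 12 (102554969 to 102565028), encodes chromogranin A, the most used general marker of the lineage, and gave 58 counts in 34 of 37 libraries. Sst, on chromosome 16 (23889573 to 23890958), encodes somatostatin of D cells and gave 37 counts in 25 libraries. Neurod1, on chromosome 2 (79452521 to 79456751), gave 24 counts in 16 libraries. None of these 3 passed the filter on low counts, which left 4902 genes for testing, so 7 of the 10 members were tested.

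Markers of tuft cells, enteric neurons and glia, immune cells and stroma were near 0. The 10 tuft cell markers gave 16 counts over all libraries with 5 at 0, Trpm5, Il25, Gfi1b, Sh2d6 and Alox5ap, and Dclk1 had 1 count. Enteric neurons make Tac1, Cck and Sst in whole gut. The 8 markers of enteric neurons and glia gave 29 counts, of which S100b had 27. The neuronal genes Tubb3, Uchl1 and Prph were at 0 in all 37 libraries. Immune markers gave 32 counts, with Ptprc, Cd3e and Cd79a at 0. Of these counts 29 came from Lyz2, which is also on the list of Paneth markers used here. Stromal markers gave 7 counts. In bulk libraries such as these, fewer cells of a type and less RNA per cell cannot be told apart.

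The 2 treatments and 4 genotypes were checked on genes outside the set. The PPAR targets Angptl4 and Acot1 were higher with GW in WT organoids, by 1.95 and 2.78 on the log2 scale (adjusted p = 1.22e-06 and 1.05e-06, edgeR quasi-likelihood test, Benjamini-Hochberg over all genes tested). In A they were higher with GW by 1.38 and 1.70 (adjusted p = 0.00101 and 0.00811, same test). In D the differences were 1.02 and 1.08 and in DA 0.01 and -0.59, and none of these passed. The DA response was below that of WT for both genes (adjusted p = 0.00346 and 0.000166, same test). In vehicle, DA was above WT by 1.02 for Angptl4 and 1.67 for Acot1 (adjusted p = 0.111 and 0.0409, same test). The DA and WT responses thus start from unequal levels. Ppara had 0 to 3 counts in each library of the A and DA groups, against 1 to 13 in each library of the WT and D groups. Ppard had 0 to 4 counts in any library, with 5 counts over the vehicle-treated D group and 4 over the vehicle-treated WT group. That is too few to check the D allele, and these 3′ tags need not lie in the floxed exons, so D is described by its label and not as a knockout.

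**Figure D1:**
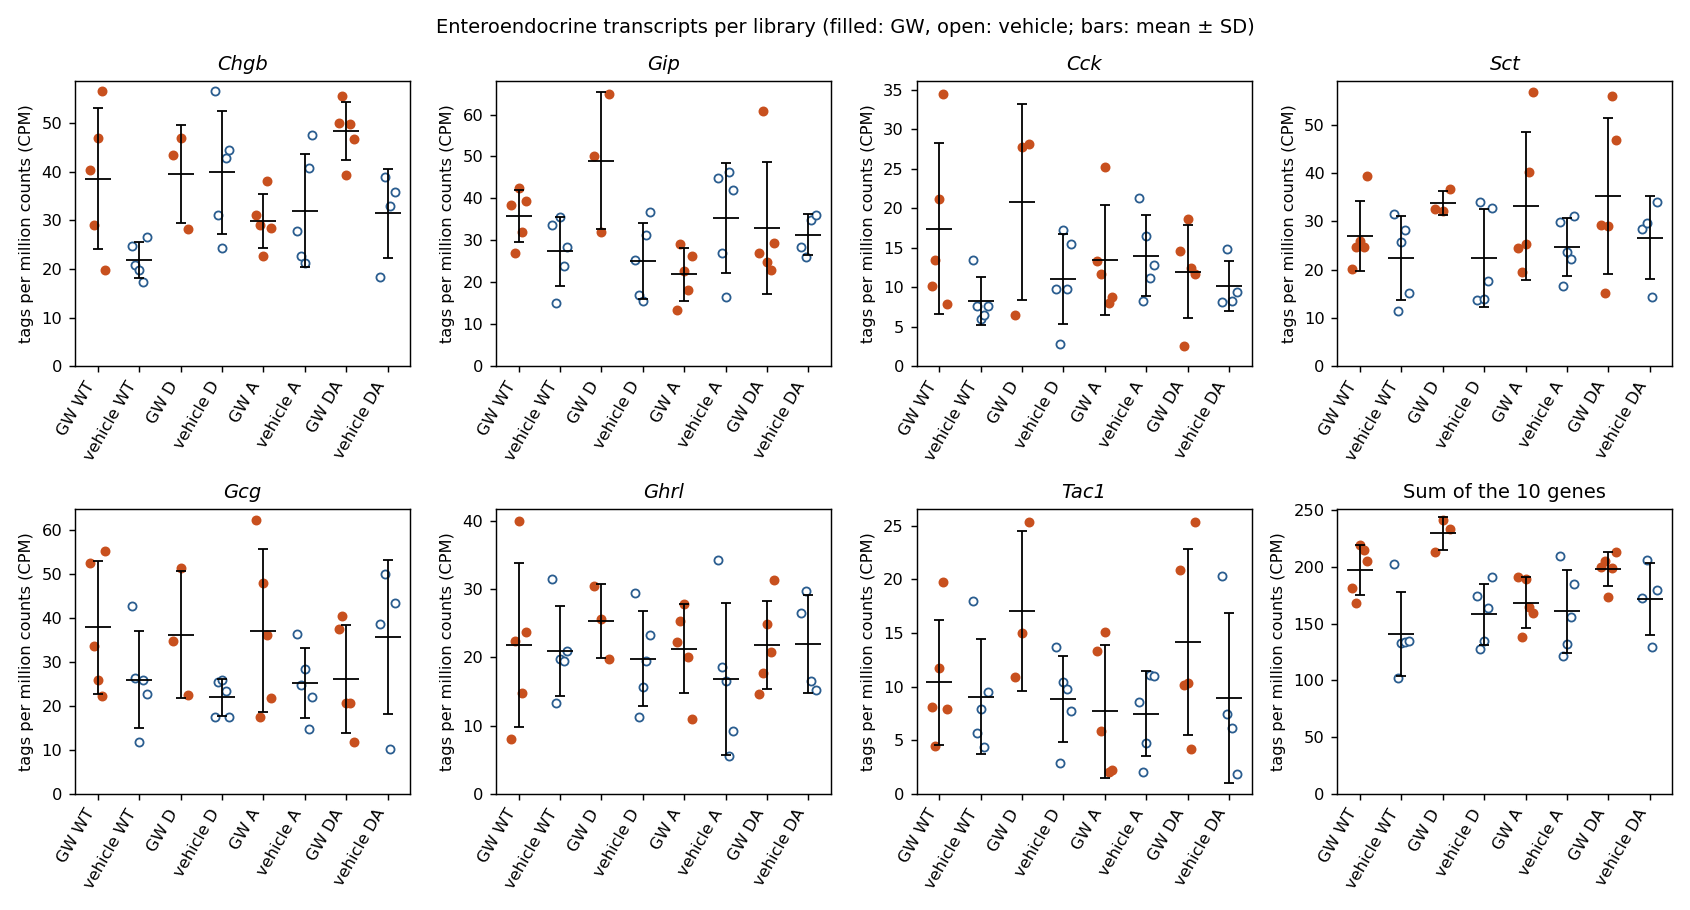
CPM (vertical axis) in each library for the 7 tested enteroendocrine genes and for the sum of all 10, by group along the horizontal axis. Filled points are GW libraries, open points vehicle libraries, and bars the mean ± SD. Chgb was lowest in vehicle-treated WT organoids, at 17.3 to 26.5 CPM, and Gip was highest in GW-treated D organoids, at 32.1 to 64.8 CPM.

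In WT organoids, the comparison of GW with vehicle asks whether GW changes these transcripts. All 7 tested genes had a log2 fold change above 0, and none passed the test. Over all 4902 genes 51.1% were above 0, the median log2 fold change of the 7 was 0.36 against 0.01 over all genes, and the share of all genes with an adjusted p under 0.05 was 0.408%. DESeq2 and limma-trend also called 0 members, here and in the other 13 comparisons. The largest differences were in Cck and Chgb.

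Chgb had 40.4, 29.1, 47.1, 56.7 and 19.7 CPM in GW-treated WT organoids (20, 13, 20, 23 and 10 counts), against 24.7, 20.8, 19.8, 17.3 and 26.5 CPM in vehicle-treated WT organoids. The GW libraries had 4 values above every vehicle library and 1 near the lower end of the vehicle range, so the groups overlapped. The means were 38.6 ± 14.6 CPM with GW and 21.8 ± 3.76 CPM with vehicle (SD, n = 5 each). Its log2 fold change was 0.75 ± 0.26 (SE, 95% interval 0.22 to 1.28), with an adjusted p of 0.394 (edgeR, Benjamini-Hochberg). It was 1 of 2 members with an unadjusted p under 0.05, a level that 6.18% of all genes reached. Within the libraries numbered 1 to 36 the log2 fold change was 0.80 ± 0.32, and within those numbered 37 to 60 it was 0.65 ± 0.44 (SE).

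Cck, the other one, had 10.1, 13.4, 21.2, 34.5 and 7.90 CPM in GW-treated WT organoids (5, 6, 9, 14 and 4 counts), against 13.5, 7.56, 5.94, 6.49 and 7.58 CPM in vehicle-treated WT organoids (6, 4, 3, 3 and 4 counts). The lowest GW library had as many counts as some vehicle libraries, and 2 GW libraries stood above the rest. The log2 fold change was 0.99 ± 0.47 (SE, 95% interval 0.04 to 1.94) and the adjusted p 0.752 (edgeR, Benjamini-Hochberg). A fold of 1.99 thus came from differences of a few counts a library.

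The remaining 5 genes had intervals that included 0. Gip averaged 35.8 ± 6.27 CPM with GW and 27.4 ± 8.26 CPM with vehicle (SD, n = 5 each), a log2 fold change of 0.36 ± 0.28 (SE). Gcg averaged 37.9 ± 15.2 CPM with GW and 26.0 ± 11.1 CPM with vehicle (log2 fold change 0.54 ± 0.38), and Sct 27.0 ± 7.32 CPM with GW and 22.4 ± 8.68 CPM with vehicle (0.26 ± 0.33). Ghrl, at 0.03 ± 0.37, and Tac1, at 0.14 ± 0.55, were the closest to no difference, and the interval of Tac1 ran from -0.98 to 1.25. The sum of the 10 genes was 182, 168, 219, 215 and 205 CPM with GW, against 202, 102, 133, 134 and 135 CPM with vehicle. One vehicle library lay within the GW range and the other 4 lay below it. That library is one of a set numbered 9 to 16, whose 4 vehicle libraries, 1 of each genotype, had sums of 174 to 209 CPM, against 102 to 191 CPM in the vehicle libraries of other numbers. The 4 GW libraries of that set had sums of 138 to 213 CPM, with 168 CPM in WT. Their mean was 181 CPM, below the mean of 198 CPM of its vehicle libraries. In the other sets of neighbouring numbers, some with unequal genotypes, the mean was higher with GW.

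Markers of other epithelial cells were read in the same libraries. The 10 enterocyte markers summed to 30814 to 65145 CPM with GW and to 17164 to 24400 CPM with vehicle in WT, but this sum is mostly Fabp1, a fatty acid carrier that gave 346066 of the list's 420679 counts. Fabp1 passed the test, and of the 9 enterocyte markers tested 4 were above 0, with a median log2 fold change of -0.04. The 10 goblet markers summed to 3430 to 4808 CPM with GW and to 2971 to 5107 CPM with vehicle, so the groups overlapped. Of the 7 goblet markers tested 7 were above 0, with a median of 0.37, and none passed. Of the 8 Paneth markers tested 3 were above 0, with a median of -0.04, and none passed. Their part in the enteroendocrine values was not tested.

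**Figure D2:**
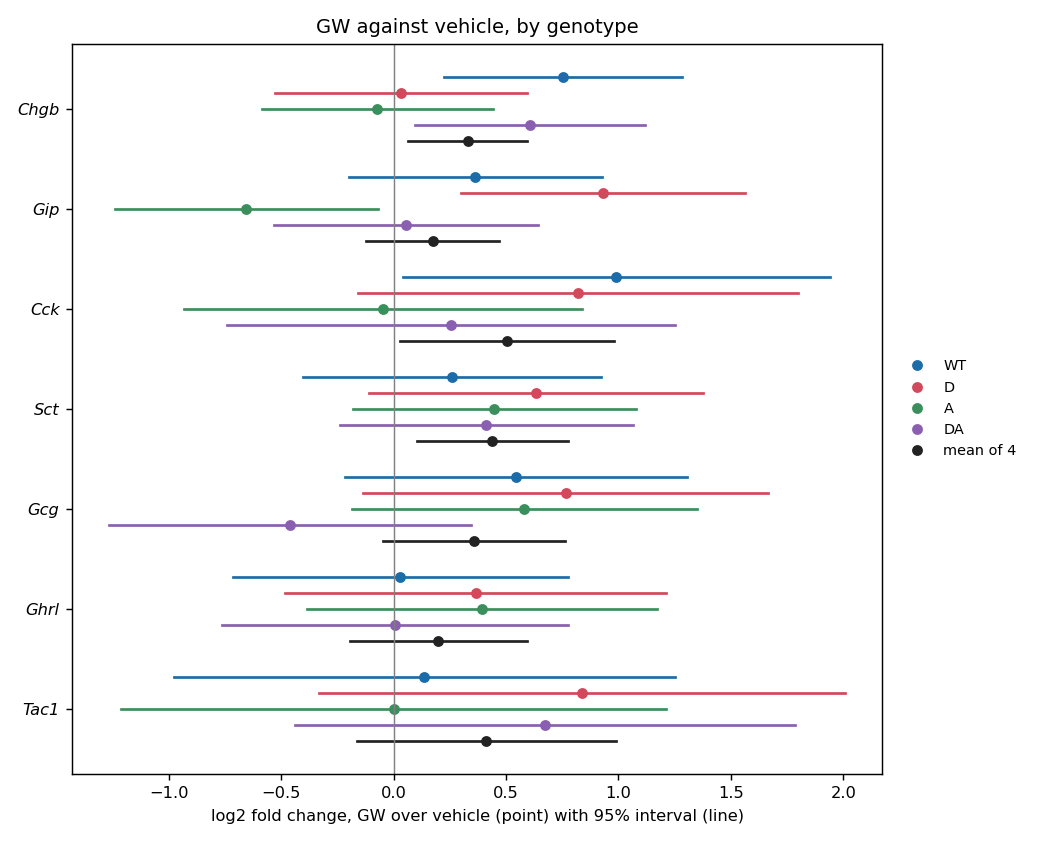
Log2 fold change of GW over vehicle (horizontal axis) for the 7 tested genes in WT, D, A and DA organoids and as the mean of the 4 genotypes. Points are edgeR estimates and lines their 95% intervals. Intervals that leave 0 out belong to Chgb in WT and DA, Gip in D and A, Cck in WT, and the means of Chgb, Cck and Sct, and none of these passed the adjusted test.

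In D organoids all 7 tested genes again lay above 0, with a median log2 fold change of 0.77 against -0.00 over all genes, of which 49.8% were above 0. None passed, and no gene of the 4902 did (0.00%), where GW had 3 libraries. Gip had the largest difference. It was at 50.1, 32.1 and 64.8 CPM in GW-treated D organoids (23, 15 and 23 counts), against 25.4, 17.0, 15.6, 31.2 and 36.7 CPM in vehicle-treated D organoids. The groups overlapped by 1 library on each side. The means were 49.0 ± 16.4 CPM with GW (SD, n = 3) and 25.2 ± 9.07 CPM with vehicle (SD, n = 5).

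The log2 fold change of Gip was 0.93 ± 0.31 (SE, 95% interval 0.30 to 1.56), with an adjusted p of 1.00 (edgeR, Benjamini-Hochberg). Its unadjusted p of 0.00459 was the only one under 0.05 among the 7, and 3.24% of all genes reached that level. Tac1 (0.84 ± 0.58), Cck (0.82 ± 0.48), Gcg (0.77 ± 0.45), Sct (0.63 ± 0.37) and Ghrl (0.36 ± 0.42) followed, as log2 fold changes ± SE. Chgb, which had one of the 2 largest differences in WT, was close to 0 here. It had 43.5, 47.0 and 28.2 CPM with GW, against 56.7, 31.1, 24.2, 42.9 and 44.5 CPM with vehicle, and its log2 fold change was 0.03 ± 0.28. The sum of the 10 genes was 213, 242 and 234 CPM with GW, against 174, 127, 135, 164 and 191 CPM with vehicle. The groups did not overlap in the sum, while they did for every single gene. In D, 2.18% of all genes had groups that did not overlap, and no such share was counted for sums of genes. The enterocyte sum, mostly Fabp1, was 26795 to 50385 CPM with GW and 16852 to 38192 CPM with vehicle. Of the 9 enterocyte markers tested 6 were above 0, with a median of 0.27, and none passed. Goblet markers were above 0 in 6 of 7 (median 0.24) and Paneth markers in 8 of 8 (median 0.08), with none past the test. Their part in these values was not tested.

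In A organoids 3 of the 7 tested genes were above 0, against 50.0% of all genes, and the median log2 fold change was -0.00. No member passed, where 0.306% of all genes did. Gip was lower with GW, the opposite side from WT and D. It had 13.4, 29.1, 22.7, 18.1 and 26.2 CPM in GW-treated A organoids (6, 15, 9, 9 and 12 counts), against 44.9, 26.9, 16.5, 46.3 and 42.1 CPM in vehicle-treated A organoids (21, 13, 7, 25 and 23 counts). Of the vehicle libraries 3 were above every GW library and 2 were within the GW range.

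The log2 fold change of Gip in A was -0.65 ± 0.29 (SE, 95% interval -1.24 to -0.07), with an adjusted p of 0.999 (edgeR, Benjamini-Hochberg). It was the only member with an unadjusted p under 0.05, which 3.59% of all genes had. The value was -0.38 ± 0.42 within libraries 1 to 36 and -0.97 ± 0.37 within libraries 37 to 60 (SE). Gcg (0.58 ± 0.38), Sct (0.45 ± 0.31) and Ghrl (0.39 ± 0.38) were above 0 and Tac1 (-0.00 ± 0.60), Cck (-0.05 ± 0.44) and Chgb (-0.07 ± 0.25) close to it, all with intervals that included 0. The sum of the 10 genes ran from 138 to 191 CPM with GW and from 122 to 209 CPM with vehicle. The groups overlapped. The enterocyte sum, mostly Fabp1, did not overlap, at 20581 to 34309 CPM with GW and 10716 to 15010 CPM with vehicle. Fabp1 passed the test, and of the 9 enterocyte markers tested 5 were above 0, with a median of 0.04. Goblet markers were above 0 in 7 of 7 (median 0.20) and Paneth markers in 5 of 8 (median 0.18), with none past the test. Their part in the Gip difference was not tested.

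In DA organoids 6 of the 7 genes were above 0, against 49.9% of all genes, with a median of 0.26. No member and no other gene passed (0.00%). Chgb had 50.0, 55.7, 39.3, 49.8 and 46.9 CPM in GW-treated DA organoids, against 18.3, 38.9, 32.9 and 35.9 CPM in vehicle-treated DA organoids. Every GW library was above every vehicle library, at 39.3 CPM against 38.9 CPM where they came closest, and this was the single instance of groups that did not overlap among the 10 genes in the 4 GW comparisons. In DA, 0.857% of all genes had groups that did not overlap, and the shares were 1.00% in WT, 2.18% in D and 0.836% in A.

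The log2 fold change of Chgb in DA was 0.61 ± 0.25 (SE, 95% interval 0.10 to 1.12), with an adjusted p of 1.00 (edgeR, Benjamini-Hochberg). Its unadjusted p was under 0.05, as for 3.20% of all genes. The value was 0.69 ± 0.29 within libraries 1 to 36 and 0.43 ± 0.47 within libraries 37 to 60 (SE), where the higher numbers hold 1 vehicle library of this genotype. Gcg was the member below 0, at -0.46 ± 0.40, with 11.7 to 40.5 CPM with GW and 10.3 to 50.1 CPM with vehicle. Tac1 (0.67 ± 0.55), Sct (0.41 ± 0.32), Cck (0.26 ± 0.49), Gip (0.05 ± 0.29) and Ghrl (0.01 ± 0.38) had intervals that included 0. The enterocyte sum overlapped in DA, at 8580 to 18348 CPM with GW and 10119 to 16646 CPM with vehicle. Of the 9 enterocyte markers tested 2 were above 0, with none past the test. Goblet markers were above 0 in 4 of 7 (median 0.02) and Paneth markers in 1 of 8 (median -0.07), again with none past the test.

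The mean of the 4 genotypes gives each member its narrowest interval. All 7 genes were above 0, against 50.2% of all genes, with a median log2 fold change of 0.36 against 0.00 over all genes. None passed, against 0.653% of all genes. Cck (0.51 ± 0.24), Sct (0.44 ± 0.17) and Chgb (0.33 ± 0.13) had intervals above 0 and unadjusted p-values of 0.0343, 0.011 and 0.0148, where 6.65% of all genes had an unadjusted p under 0.05. Their adjusted p-values were 0.63, 0.416 and 0.451 (edgeR, Benjamini-Hochberg). The side above 0 was not particular to these genes. Goblet markers were above 0 in 7 of 7 for the same mean (median 0.14). Paneth markers were above 0 in 5 of 8 (median 0.04), enterocyte markers in 5 of 9 (0.03) and stem cell markers in 1 of 7 (-0.11).

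Sct and Ghrl were above 0 in each genotype, a trait read off after the values were seen. Ghrl had log2 fold changes of 0.03 (WT), 0.36 (D), 0.39 (A) and 0.01 (DA). Those of Sct were 0.26 (WT), 0.63 (D), 0.45 (A) and 0.41 (DA). In WT the Sct values were 20.2 to 39.5 CPM with GW and 11.3 to 31.5 CPM with vehicle. They were 32.1 to 36.6 CPM with GW and 13.7 to 34.0 CPM with vehicle in D. In A they were 19.4 to 56.8 CPM with GW and 16.5 to 31.1 CPM with vehicle, and in DA 15.2 to 56.1 CPM with GW and 14.4 to 34.1 CPM with vehicle. GW and vehicle overlapped in every genotype. Over the 2 ranges of library numbers this gene averaged 23.9 ± 6.98 CPM over the 23 libraries numbered 1 to 36 and 34.4 ± 12.8 CPM over the 14 numbered 37 to 60 (SD), and the mean GW difference was 0.21 ± 0.20 within the lower numbers and 0.63 ± 0.24 within the higher ones (SE). For Chgb the mean GW difference was 0.50 ± 0.16 within the lower numbers and 0.02 ± 0.23 within the higher ones. In the higher numbers GW in D and vehicle in DA were 1 library each, so every such mean leans on those single libraries. The difference between the ranges was not tested. For Cck it was 0.43 ± 0.32 and 0.60 ± 0.38. What the numbers stand for is not given, and their part in the differences was not tested. The other members had mean differences of 0.41 ± 0.28 (Tac1), 0.36 ± 0.20 (Gcg), 0.20 ± 0.19 (Ghrl) and 0.17 ± 0.15 (Gip), all with intervals that included 0.

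Whether the response to GW depended on genotype was tested as the difference of the responses, D, A or DA minus WT, in the same model. For A minus WT 3 of the 7 were above 0, against 49.0% of all genes, no member passed and no gene of the 4902 did (0.00%). Gip differed by -1.02 ± 0.40 (SE, 95% interval -1.83 to -0.20) and Chgb by -0.83 ± 0.36 (-1.56 to -0.09), with unadjusted p-values of 0.0143 and 0.0271 and adjusted p-values of 1.00 (edgeR, Benjamini-Hochberg). An unadjusted p under 0.05 was found in 3.33% of all genes. Cck had a difference of similar size, -1.04, with the wide SE of 0.64. The other 4 ranged from -0.14 (Tac1) to 0.36 (Ghrl).

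For D minus WT, 5 of the 7 were above 0, against 49.6% of all genes, and none passed (0.00% of all genes). No member had an unadjusted p under 0.05, where 3.22% of all genes did. Chgb was the lowest at -0.72 ± 0.38 and Tac1 the highest at 0.70 ± 0.80. For DA minus WT, 2 of the 7 were above 0, against 50.5% of all genes, and none passed, where 0.0816% of all genes did. None had an unadjusted p under 0.05, where 4.10% of all genes did. Gcg was the lowest, at -1.01 ± 0.55 (SE, 95% interval -2.11 to 0.10). These 3 differences share the WT libraries and so are not independent of each other. A response that missed the threshold in one genotype is not shown to equal that in another. For each of the 7 genes, intervals in some of these comparisons include differences of 2-fold or more.

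**Figure D3:**
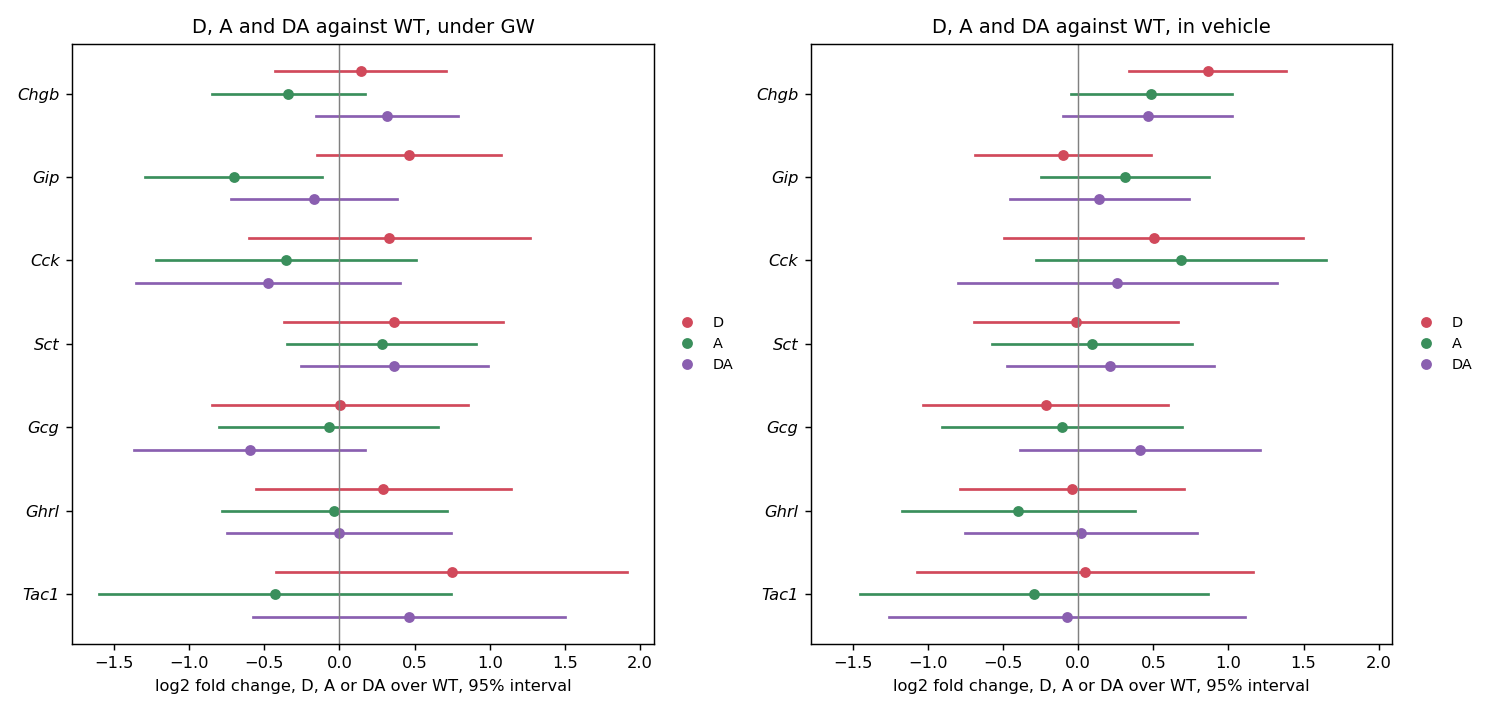
Log2 fold change of D, A and DA organoids over WT (horizontal axis) under GW (left) and in vehicle (right), for the 7 tested genes, with 95% intervals from edgeR. In vehicle the 3 Chgb estimates lie above 0, at 0.86, 0.49 and 0.46, and under GW the Gip estimate for A lies below 0, at -0.70.

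Without GW, D, A and DA were each compared with WT for the unstimulated level. Chgb had the largest difference of the 7 genes in D and in DA, and Cck the largest in A. The Chgb values were 56.7, 31.1, 24.2, 42.9 and 44.5 CPM in vehicle-treated D organoids, 27.8, 22.7, 21.2, 40.8 and 47.6 CPM in vehicle-treated A organoids and 18.3, 38.9, 32.9 and 35.9 CPM in vehicle-treated DA organoids, against 24.7, 20.8, 19.8, 17.3 and 26.5 CPM in vehicle-treated WT organoids. In D, 4 of 5 libraries were above every WT library, in A and in DA 3 were, and all 3 pairs overlapped.

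The log2 fold changes of Chgb were 0.86 ± 0.26 for D (95% interval 0.34 to 1.39), 0.49 ± 0.26 for A and 0.46 ± 0.28 for DA (SE), and all 3 rest on the same WT libraries. The adjusted p for D was 1.00 (edgeR, Benjamini-Hochberg), against an unadjusted p of 0.00158. In D against WT 0.0408% of all genes passed, 3.47% had an unadjusted p under 0.05, and Chgb was the 1 member among those. The value was 0.83 ± 0.32 within libraries 1 to 36 and 0.92 ± 0.42 within libraries 37 to 60. No member passed for A (0.0816% of all genes) or for DA (0.326%), and none had an unadjusted p under 0.05, against 4.45% of all genes for A and 6.10% for DA.

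For the other 6 genes in vehicle, the log2 fold changes ran from -0.22 (Gcg) to 0.50 (Cck) in D, from -0.40 (Ghrl) to 0.68 (Cck) in A and from -0.07 (Tac1) to 0.41 (Gcg) in DA, all with intervals that included 0. The Cck estimates rest on a WT group with 3 to 6 counts a library. Counted over the 7 genes, 3 were above WT in D (50.9% of all genes), 4 in A (48.6%) and 6 in DA (49.5%). The groups overlapped for 10 of the 10 genes in each of these 3 comparisons, where 0.796%, 0.796% and 2.53% of all genes did not overlap.

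Under GW, 7 of the 7 genes were above WT in D (50.0% of all genes), 1 in A (48.3%) and 3 in DA (49.4%). None passed, against 0.0612% of all genes in D, 0.184% in A and 0.836% in DA, and the groups overlapped for 10 of the 10 genes, where 2.04%, 0.469% and 1.41% of all genes did not overlap. The largest difference with an interval away from 0 was that of Gip in A. GW-treated A organoids had the 13.4 to 29.1 CPM given above, against 38.4, 26.9, 42.4, 32.1 and 39.5 CPM in GW-treated WT organoids, so that 4 of 5 WT libraries were above every A library. The log2 fold change was -0.70 ± 0.29 (SE, 95% interval -1.30 to -0.11), the unadjusted p 0.019, as 4.96% of all genes had one under 0.05, and the adjusted p 0.833 (edgeR, Benjamini-Hochberg). It was -0.69 ± 0.41 within libraries 1 to 36 and -0.68 ± 0.39 within libraries 37 to 60. Tac1 in D (0.75 ± 0.58) and Gcg in DA (-0.60 ± 0.38) had larger or similar estimates with intervals that included 0. In D and DA no member had an unadjusted p under 0.05, against 3.47% and 8.69% of all genes.

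Across all 8 groups, Chgb was highest in GW-treated DA organoids (48.3 ± 5.98 CPM) and lowest in vehicle-treated WT organoids (21.8 ± 3.76 CPM), and the libraries of those 2 groups did not overlap. Gip was highest in GW-treated D organoids (49.0 ± 16.4 CPM) and lowest in GW-treated A organoids (21.9 ± 6.31 CPM), again without overlap. For the other 8 genes the highest and the lowest group overlapped. Cck, Ghrl, Tac1 and Sst were highest in GW-treated D organoids, at 20.8 ± 12.4, 25.3 ± 5.38, 17.1 ± 7.47 and 4.52 ± 3.51 CPM, a group of 3 libraries. Gcg ran from 37.9 ± 15.2 CPM in GW-treated WT to 22.0 ± 4.19 CPM in vehicle-treated D organoids, and Sct from 35.2 ± 16.2 CPM in GW-treated DA to 22.4 ± 8.68 CPM in vehicle-treated WT organoids. These extremes were picked after the means were known and carry no test. The share of all genes whose highest and lowest groups do not overlap was not counted. The gaps of Chgb and Gip are therefore a description only.

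Counts of Chga, Sst and Neurod1 are given as group sums. Chga had 12 counts with GW and 9 with vehicle in WT organoids, 3 with GW and 7 with vehicle in D, 5 with GW and 7 with vehicle in A, and 10 with GW and 5 with vehicle in DA. In CPM over the pooled counts of the group, that is 5.27 with GW (95% exact Poisson interval 2.72 to 9.20, counting error only) against 3.65 with vehicle (1.67 to 6.92) in WT, and the intervals overlap in each genotype. Sst had 6 counts with GW and 3 with vehicle in WT, 6 with GW and 10 with vehicle in D, 2 with GW and 4 with vehicle in A, and 4 with GW and 2 with vehicle in DA. Neurod1 had 2 with GW and 1 with vehicle in WT, 1 with GW and 7 with vehicle in D, 2 with each in A, and 4 with GW and 5 with vehicle in DA. A difference between groups was not detectable at this depth for these 3 genes. With no filter, their smallest adjusted p over the 14 comparisons was 0.833, 0.833 and 0.865 (edgeR, Benjamini-Hochberg).

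The spread between libraries of a group was measured against counting error. Chi-square per degree of freedom within groups, which is near 1 where libraries differ only by counting error, was 0.589 for Chga, 0.752 for Sst, 1.24 for Neurod1, 1.28 for Chgb, 1.45 for Cck, 1.53 for Gip, 1.62 for Ghrl, 1.77 for Tac1 and 1.83 for Sct. Gcg had the widest spread between libraries, at 2.49. Over the 2267 tested genes with counts in the range of the members the median was 1.35, and the range from the 5th to the 95th percentile ran from 0.825 to 2.62, so that each of the 7 tested members lay inside it.

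**Figure D4:**
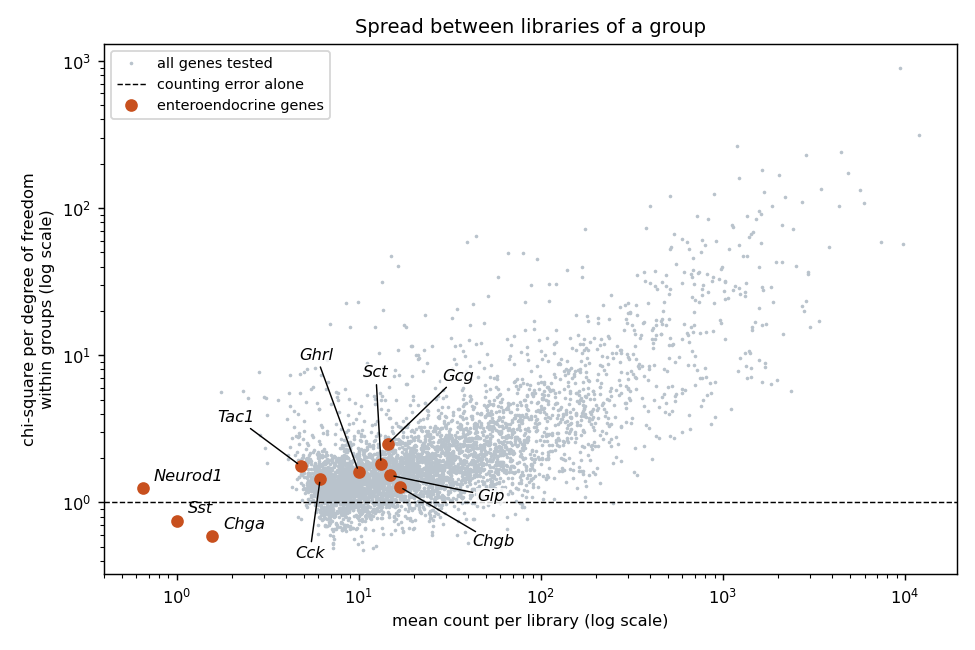
Chi-square per degree of freedom between libraries of a group (vertical axis, log scale) against the mean count per library (horizontal axis, log scale), for all 4902 genes tested (grey) and the 10 enteroendocrine genes (orange). The dashed line is counting error alone, and the enteroendocrine genes lie between 0.589 (Chga) and 2.49 (Gcg).

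The members did not vary as one block over the libraries within groups. Each group's mean was subtracted first, so differences between the 8 groups do not enter these values. Over the 37 libraries the 21 pairs of tested members then had a median Pearson r of 0.02 on log2 CPM. Of the pairs, 12 were above 0, and the values ran from -0.25 (Gip with Cck) to 0.48 (Cck with Tac1). These libraries share groups and depth, and counts of this size hold much counting noise, so the values are given as a description. The genes most like each member were sought in the same way among 4422 genes with enough counts, with the members themselves left out. Of the other enteroendocrine lists only Ddc passed the filter and could have appeared. It did not, which says little about likeness within the lineage. For Chgb they were Noct, Btg1 and Dohh (r of 0.66, 0.59 and 0.58), for Gip Cbr4, Hsdl2 and Ube2r2 (0.60, 0.54 and 0.53), and for Gcg Guca2a, Atp5c1 and Zfp991 (0.66, 0.59 and 0.58). For Cck they were Ccdc174, Mrpl10 and Siva1 (0.66, 0.66 and 0.63), for Sct Ddx46, Tmem68 and Rplp0 (0.65, 0.65 and 0.64), for Ghrl S100a14, Agr2 and Clic1 (0.72, 0.69 and 0.67), and for Tac1 Ccdc174, Haus1 and Dnaja2 (0.65, 0.59 and 0.58).

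Most other enteroendocrine genes did not pass the filter. Of 19 transcription factors of the lineage, 0 passed the filter. They gave 469 counts in all, of which Sox4 had 181, Mlxipl 99 and Foxa1 68, 3 factors that other epithelial cells express too, while Neurog3, which starts the lineage, had 14 counts and Fev none. Of 20 genes of prohormone processing and granules, 0 passed. Scg2 (secretogranin II) had 113 of their 353 counts, Pcsk1, the convertase that cuts prohormones, 47, and Pam, which amidates peptides, 48, and Pcsk2, Vgf and Ptprn were at 0. Of 11 nutrient receptors 0 passed, and Gpr39, the zinc receptor, had 158 of their 194 counts while Ffar3, Gpbar1 and Casr were at 0.

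Of 13 genes of other gut hormones and of amine synthesis, Ddc passed the filter. It encodes the decarboxylase that makes serotonin and dopamine, is expressed in enterocytes as well, and had 1461 of the list's 1770 counts. Its mean GW difference was 0.23 ± 0.10 on the log2 scale (SE, 95% interval 0.03 to 0.42), above 0 in each genotype, with an adjusted p of 0.582 (edgeR, Benjamini-Hochberg). Tph1, the serotonin enzyme of enterochromaffin cells, had 50 counts, Nts (neurotensin) 95, Slc18a1, a monoamine transporter, 78, Pyy 21, and Mboat4, which acylates ghrelin, 12. Ddc passed in none of the 14 comparisons, and the others were not tested.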

How the data were processed

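RNA was isolated with TRI reagent and its poly(A) fraction sequenced by 3′ digital gene expression, per the labels' protocols. The submitters' processing notes name mm10, edgeR 3.26.8, R 3.6.2 and Salmon 1.1.0, without their roles. The deposited count table held whole-number counts per Ensembl gene. A second deposited table held log2(CPM + 1) values, and back-transformed they came within 0.503 of the counts, 90.4% of them within 0.01 of a whole number, so that the deposited counts are rounded estimates. Only the counts were tested. A column's name gave its group, and 37 of 57 columns were used, leaving 20. Symbols came from the GENCODE annotation on mm10 and were found for 54179 of 54352 identifiers.

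Counts were scaled by TMM after edgeR's filterByExpr and fitted in R 4.3.3 with edgeR 4.0.16 as 1 model of 8 groups with quasi-likelihood tests of 14 comparisons. Adjusted p-values are Benjamini-Hochberg over the 4902 genes tested, with a threshold of 0.05. SEs and 95% intervals come from the same fit. The code was tested on simulated counts. Every member is named, and of the other enteroendocrine lists those that passed the filter, plus counts of single genes chosen after their values were seen. The members and lists were chosen with earlier results of these data known. Alternatives were another scaling, no filter, DESeq2 1.42.0, limma 3.58.1, fits of the compared groups alone, 2 ranges of library numbers (apart, or as a term), columns with a suffix 2 left out, and each library left out in turn. Chosen after seeing the data, a block of 6 sets of neighbouring library numbers was added, a gap of 3 or more numbers starting a new set. Likeness was Pearson's r of log2 CPM over 37 libraries, after each group's mean was subtracted.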

Additional observations from a re-analysis of the deposited data

Results flagged for a closer look

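In 56 sets of libraries, for the 7 tested genes and the sum of all 10 in each group of 4 or 5 libraries, 2 sets held a library far from the rest by Dixon's criterion. Chance flags about 1 in 20 such sets. Gip in GW-treated DA organoids had 60.8 CPM in replicate 2, against 22.8 to 29.3 CPM in the other 4 libraries. Without that library the Gip difference between GW and vehicle in DA was -0.28 on the log2 scale. Cck in vehicle-treated WT organoids had 13.5 CPM (6 counts) in replicate 1, against 5.94 to 7.58 CPM in the other 4. No cause was tested for either.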

How the results depend on the processing

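No member passed the adjusted threshold in any of the 14 comparisons under any of 49 settings (2379 fitted values). The lowest adjusted p of a member was 0.136, for Chgb with GW in WT organoids without replicate 5 of the GW group. Of 56 log2 fold changes followed through every alternative, 42 kept one sign throughout. Among 531 values under alternatives other than leaving out 1 library, 19 had the opposite sign. With no filter on low counts, Ghrl was at -0.0086 in WT and -0.000408 in DA, and with limma-trend Ghrl was at -0.06735 in WT and Gip at -0.00165 in DA. Tac1 in A was at 0.004499 with other size factors and 0.03182 with DESeq2. Within libraries 1 to 36, Chgb was at 0.259 and Cck at 0.1393 in A, and Ghrl at -0.3102 in DA and, for A against WT in vehicle, at 0.0755. Within libraries 37 to 60, Ghrl was at -0.1029 in WT and -0.1227 in D, Chgb at -0.6376 in D, Gip at -0.4558 in DA and at -0.0287 as the mean of genotypes. Gip was at -0.07673 as that mean with D left out. Leaving out each library in turn turned 39 of 821 values. The ranges were -0.3165 to 0.2497 for Ghrl and -0.1564 to 0.4902 for Tac1 in WT, -0.1669 to 0.2615 for Chgb in D, -0.1591 to 0.1113 for Chgb, -0.3748 to 0.1637 for Cck and -0.3595 to 0.2815 for Tac1 in A, and -0.2802 to 0.1672 for Gip and -0.1515 to 0.181 for Ghrl in DA. They were -0.3952 to 0.006707 for Gcg in D and -0.8301 to 0.2812 for Tac1 in DA against WT in vehicle, and -0.4925 to 0.1676 for the Tac1 response of A against that of WT. The causes were not tested.

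The number of genes called over the whole table moved more. With no filter it was 45 for GW in WT, 8 in D, 28 in A, 10 in DA and 54 for their mean, 12, 8 and 20 for the response of D, A and DA against that of WT, 18, 54 and 80 for D, A and DA against WT in vehicle, and 17, 58 and 110 under GW. Within libraries 1 to 36 it was 11 for GW in WT, 3 in A, 14 for the mean, 2 for the DA response, 4 for D and 23 for A in vehicle, and 19 for A and 20 for DA under GW. Within libraries 37 to 60 it was 1 for the A response, 0 for the DA response, 0 for D in vehicle, and 1 for D and 2 for A under GW. With the compared groups alone it was 9 for GW in A, 4 for D and 1 for A in vehicle, and 3 for A under GW. DESeq2 gave 1 for GW in DA and 7 for the DA response, and limma-trend gave 1 for the D response, 1 for A and 9 for DA in vehicle, and 5 for A under GW. A term for the 2 ranges of numbers gave 8 for A in vehicle and 65 for DA under GW, and leaving out the columns with suffix 2 gave 0 for DA in vehicle and 0 for A under GW. With 1 library left out, the counts ran from 6 to 15 for GW in A, from 1 to 2 for D, from 0 to 10 for A and from 0 to 6 for DA in vehicle (16 with all libraries), and from 1 to 3 for D, from 5 to 11 for A and from 21 to 45 for DA under GW.

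The columns carry no replicate numbers that join them across groups. After seeing the data, the 6 sets of neighbouring library numbers, in which each group occurs at most once, were fitted as a replicate block. What the sets stand for is not given. Libraries of different groups deviated together within a set over all genes (median r of 0.18, 101 of 103 pairs above 0, against -0.06 between sets). With the block no member passed. Tac1 in WT was at -0.07966, Cck in A at 0.06905 and Gip in DA at -0.003822, and the genes called were 1 for GW in D, 59 for the mean (32 without the block), 7 for the DA response (4), 13 for A in vehicle (4) and 86 for DA under GW (41). The alternative that adds the unused GW column of D was not run. Depth limits the precision: at 1 to 29 counts a library, the interval of a GW difference in 1 genotype was as wide as -1.21 to 1.21 log2 units, for Tac1 in A.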
